A study of Mus musculus with 80 samples.

Results

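The 10 genes described here carry calcium into and out of the sarcoplasmic or endoplasmic reticulum, the calcium store of the cell. They were chosen by name: the SERCA pumps Atp2a1, Atp2a2 and Atp2a3, the small pump regulators Sln and Pln, the ryanodine receptors Ryr1, Ryr2 and Ryr3, and the IP3 receptors Itpr1 and Itpr2. All 10 are among the 32764 genes counted in every library. RNA was sequenced from male mice on a C57BL/6J background, in brown fat (BAT), the inguinal depot of white fat (iWAT), liver and muscle. Each of the 16 combinations of genotype and tissue had 5 libraries, 80 in total.

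The WT group had both genes intact. FGF21 KO mice lacked FGF21, a hormone released by liver and stressed fat, and UCP1 KO mice lacked UCP1, the protein that lets brown fat mitochondria burn fuel as heat. The dKO group lacked both and its label spells the genotype "UCP1/FGF12 double KO", where the study's text elsewhere names FGF21. All groups had been raised at 30 °C, were moved to room temperature at an age of 10 to 12 weeks and then ate a high-fat diet for 3 weeks, so no comparison contrasts diets or temperatures. Labels do not tie libraries of different tissues to a mouse, and p-values measure the spread between these libraries, part of which may be technical.

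SERCA pumps use ATP to move calcium from the cytosol into the store, and ryanodine and IP3 receptors let it out again. A cell that pumps calcium back while it leaks out spends ATP as heat, and such calcium cycling has been proposed as a source of heat in fat that does not need UCP1. Sarcolipin, the product of Sln, lets SERCA use ATP without moving as much calcium, and phospholamban, the product of Pln, lowers the affinity of the pump for calcium. The question put to the data was how the RNA of these genes stood in mice without UCP1, without FGF21 and without both.

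Libraries held 28691377 to 50380696 counts on genes (median 38022853), and CPM values are counts scaled to library totals multiplied by TMM factors. A gene was called where its adjusted p from edgeR's quasi-likelihood test was under 0.01. Not all members had enough counts to be tested: Ryr3 was left out in BAT, Sln in iWAT, and Sln, Pln, Ryr2 and Ryr3 in liver, while all 10 were tested in muscle. Fgf21 had at most 3 counts in every FGF21 KO and dKO library. Counts over the whole Ucp1 gene were 530 to 1240 CPM in UCP1 KO BAT and 3200 to 7550 CPM in WT BAT. In iWAT they were 102 to 734 CPM in UCP1 KO and 2.64 to 16.7 CPM in WT. Such counts can include exons outside the disrupted part and do not check the UCP1 genotype. All 4 adipocyte markers, all 4 hepatocyte markers and all 10 fast muscle markers were detected in every library of the fat depots, liver and muscle, respectively.

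Windows of 300 bases around the start site (250 before, 50 after, RefSeq, GRCm38.p6) were found for 6 of the 10 members. The windows of Atp2a3, Ryr2 and Atp2a1 are shown as examples, chosen after their values were seen, of a gene that differed by genotype in BAT (Atp2a3), one with its highest WT level in BAT (Ryr2) and one that ran with muscle markers (Atp2a1). Capitals mark the motifs GGGCGG (GC box), CAGCTG (an E-box) and AGGTCA (a nuclear receptor half-site) on either strand, with overlapping matches of a motif counted separately. TGACGTCA and TATAAA were searched as well.
Atp2a3, chr11:72960919-72961218, plus strand: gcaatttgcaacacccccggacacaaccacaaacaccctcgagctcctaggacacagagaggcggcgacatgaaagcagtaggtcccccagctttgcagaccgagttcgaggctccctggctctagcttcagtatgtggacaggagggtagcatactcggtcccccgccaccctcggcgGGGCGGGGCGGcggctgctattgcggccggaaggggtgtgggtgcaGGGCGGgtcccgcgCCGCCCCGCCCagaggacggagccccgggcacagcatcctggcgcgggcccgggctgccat
Ryr2, chr13:12106896-12107195, minus strand: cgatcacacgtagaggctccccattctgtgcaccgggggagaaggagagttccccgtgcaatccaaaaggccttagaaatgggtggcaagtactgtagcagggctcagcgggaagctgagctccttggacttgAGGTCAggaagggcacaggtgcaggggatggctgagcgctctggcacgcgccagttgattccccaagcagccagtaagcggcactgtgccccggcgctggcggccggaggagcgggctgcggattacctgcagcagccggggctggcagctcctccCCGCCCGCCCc
Atp2a1, chr7:126463024-126463323, minus strand: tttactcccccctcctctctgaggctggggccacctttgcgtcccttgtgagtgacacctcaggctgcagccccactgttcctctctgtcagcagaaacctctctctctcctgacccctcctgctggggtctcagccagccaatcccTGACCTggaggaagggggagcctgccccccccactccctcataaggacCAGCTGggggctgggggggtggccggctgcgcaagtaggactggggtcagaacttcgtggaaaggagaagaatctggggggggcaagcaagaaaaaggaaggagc

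The Atp2a3 window held 5 matches to the GC box and no other motif, and 68.3% of its bases were G or C, against a median of 52.7% over 32851 windows. The Ryr2 window held 2 GC box matches, both after the start site, and 1 AGGTCA match. The Atp2a1 window held 1 CAGCTG and 1 AGGTCA match and no GC box. Of all windows of this length, 35.7% held GGGCGG, 16.3% CAGCTG, 16.3% AGGTCA, 13.6% TATAAA and 1.79% TGACGTCA. A match describes these letters and is not a measured binding site.

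Levels of the calcium genes differed between tissues of WT mice, as did those of most genes. Levels are given here per kilobase of the longest coding transcript, so that genes can be compared. They use TMM factors from the joint fit of the WT libraries, while levels within a tissue further on use factors of that tissue. In muscle Atp2a1, which encodes the pump of fast-twitch fibres (SERCA1, chr7:126445858-126463108), stood at 9400 ± 705 CPM per kb (SD, n = 5). It made up 99.09 to 99.75% of the summed SERCA level in WT muscle. In BAT the pump RNA was mostly Atp2a2 (SERCA2, chr5:122453513-122502225), which serves heart, slow muscle and most other cells. Atp2a2 made up 89.34 ± 4.61% of the SERCA level in WT BAT, Atp2a1 6.17 ± 4.50% and Atp2a3 4.49 ± 0.35%.

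Atp2a2 stood at 69.5 ± 18.3 CPM per kb in WT liver and 59.3 ± 4.07 in BAT, which did not differ beyond their spread (edgeR adjusted p = 0.434). It was lower in iWAT, at 29.0 ± 3.20, than in BAT (adjusted p = 0.00175). Muscle, at 34.7 ± 21.5 CPM per kb, was not separable from iWAT (adjusted p = 0.357). With TMM factors taken within each tissue, WT means were 62.6 CPM per kb in BAT, 53.5 in liver, 47.4 in iWAT and 28.8 in muscle. The order of these tissues thus depended on the scaling. Atp2a3 (SERCA3, chr11:72961169-72993044), the pump of blood, immune and some epithelial cells, was highest in iWAT. Its level ranged there from 4.83 to 24.2 CPM per kb, against 2.74 to 3.27 in BAT, 1.77 to 2.56 in muscle and 0.223 to 0.538 in liver. In the 3 WT iWAT libraries with a low lymph node score it stood at 4.83 to 6.53, and the higher values came from the other 2, whose lymph node scores were 6.45 and 7.01. BAT and muscle were neighbours that did not differ for Atp2a3 (adjusted p = 0.333).

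Ryr1 (chr7:29003344-29125179), the release channel of skeletal muscle, stood at 288 ± 9.30 CPM per kb in WT muscle and had a median of 0.0881 in BAT, 0.179 in iWAT and 0.257 in liver. Ryr2 (chr13:11553102-12106945), the channel of heart muscle, was instead highest in BAT, with 0.122 to 0.290 CPM per kb. The 5 BAT libraries stood above the 0.0235 to 0.0659 of iWAT (adjusted p = 3.53e-05) and the 0.00571 to 0.0206 of muscle (adjusted p = 2.21e-07). Ryr3 (chr2:112631355-113217096), a widely but weakly expressed form, reached 0.149 CPM per kb in muscle and stayed at or under 0.00598 in BAT and 0.00476 in liver.

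Both IP3 receptors, which open when hormones raise IP3, were highest in BAT. Itpr2 (chr6:146108299-146502223) stood at 16.7 ± 1.09 CPM per kb in BAT, 5.39 ± 0.743 in liver, 2.28 ± 0.397 in iWAT and 1.40 ± 0.159 in muscle, and every neighbouring pair in that order was called. Itpr1 (chr6:108213096-108551109) fell in the order BAT 12.9 ± 1.30, liver 9.28 ± 2.14, muscle 6.81 ± 0.408 and iWAT 4.31 ± 0.310 CPM per kb, again with every neighbouring pair called. The order of muscle and iWAT depended on the scaling. With TMM factors taken within each tissue, Itpr1 stood at 7.07 ± 0.54 CPM per kb in WT iWAT and 5.63 ± 0.32 in WT muscle.

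The regulators were scarce. Pln (chr10:53337667-53345987) stood at 0.770 ± 0.288 CPM per kb in muscle, 0.499 ± 0.156 in iWAT and 0.497 ± 0.172 in BAT, and no pair of these 3 tissues was called (adjusted p = 0.0668 to 0.997). Sln (chr9:53850164-53854560) stood at 0.358 to 2.05 CPM per kb in muscle and was at 0 in 4 of 5 WT BAT libraries and all 5 WT liver libraries. Transcripts of Atp2a1, Pln and Ryr3 overlap a gene on the opposite strand (Rabep2, Cep85l and Aven). Libraries were strand-specific, but whether counting used the strand is not given in the sources used here, so these counts may include reads of the partner. No stretch of 100 bases was shared between transcripts within the SERCA, ryanodine receptor or IP3 receptor families.

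**Figure D1:**
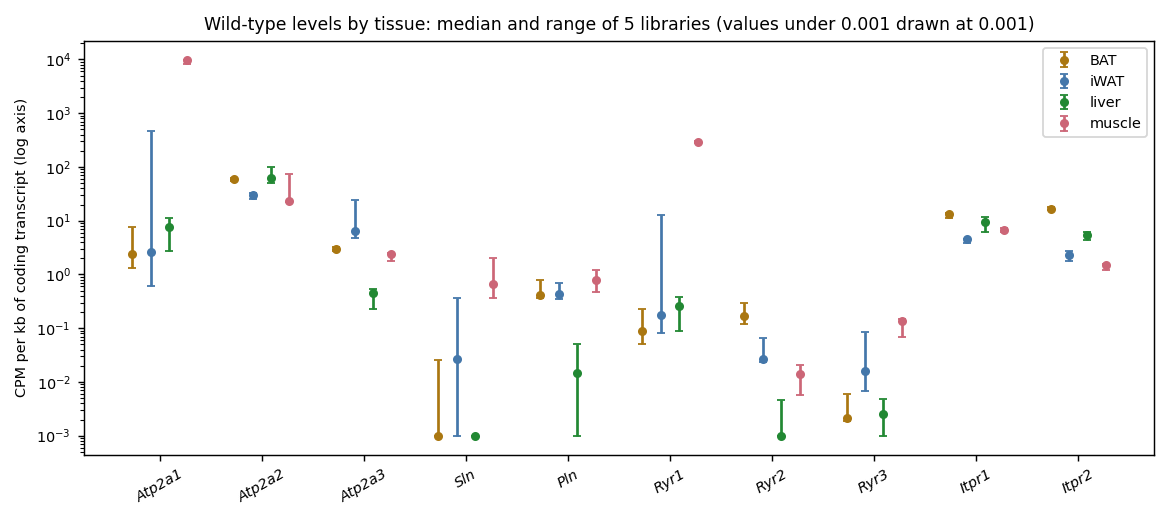
Levels of the 10 genes in the 5 WT libraries of each tissue, in CPM per kilobase of the longest coding transcript on a log axis; each point is the median and each bar the range of the libraries, with values under 0.001 drawn at 0.001. Atp2a1 and Ryr1 are highest in muscle, while Ryr2, Itpr1 and Itpr2 have their highest medians in BAT.

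Across the 4 tissues 9 of 9 members tested were called in WT mice, where 95.6% of 16886 genes were. Counts by pair were 8 of 9 for BAT against iWAT (60.7% of all genes called), 5 of 9 for BAT against liver (67.3%) and 6 of 9 for muscle against BAT (64.1%). They were 7 of 9 for muscle against iWAT (74.4%), 9 of 9 for muscle against liver (73.8%) and 8 of 9 for iWAT against liver (74.9%). Replicates 4 and 5 of WT iWAT had the highest muscle and lymph node scores of that group, and the part of these libraries in the pairs with iWAT was not tested.

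In BAT without UCP1, RNA of the pumps Atp2a2 and Atp2a3 was called higher in both steps tested. That of Atp2a1, Ryr1 and Sln had higher estimates in both steps but passed the threshold in 1 step each. Their high values lay in libraries that also held skeletal muscle markers. Between UCP1 KO and WT, 4 of 9 members were called, all higher (Atp2a1, Atp2a2, Atp2a3 and Ryr1), where 25.2% of all genes were called in either direction. Between dKO and FGF21 KO, which is the same step without FGF21, 3 of 9 were called, all higher (Atp2a2, Atp2a3 and Sln), against 13.5%. Over all 4 genotypes 5 of 9 were called, against 29.7%. The median log2 fold change of the 9 members was 0.63 between UCP1 KO and WT, where that of all genes was 0.01, and 0.59 between dKO and FGF21 KO, where that of all genes was 0.00. Since the tissue is bulk, fewer cells of a type and less RNA per cell cannot be told apart.

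Atp2a3, the pump of blood and epithelial cells, moved with the least overlap. WT libraries held 13.3, 14.2, 14.6, 15.9 and 14.3 CPM, and FGF21 KO libraries 15.2, 11.9, 13.6, 14.4 and 12.8 CPM. UCP1 KO libraries held 47.5, 65.1, 88.8, 86.8 and 155 CPM, and dKO libraries 71.2, 77.8, 64.1, 42.3 and 72.1 CPM. Every library without UCP1 was above every library with it. Atp2a3 was 6.13-fold higher in UCP1 KO than in WT (log2 fold change 2.62 ± 0.23 SE, edgeR adjusted p = 3.43e-07). It was 4.83-fold higher in dKO than in FGF21 KO (2.27 ± 0.23, adjusted p = 2.21e-06). UCP1 KO and dKO overlapped, with a log2 difference of 0.44 (interval of 2 SE 0.00 to 0.87, adjusted p = 0.409). Its median share of the SERCA level per kb was 4.48% in WT, 13.96% in UCP1 KO, 3.96% in FGF21 KO and 3.88% in dKO, a share that also falls where Atp2a1 is high.

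Atp2a2, the main pump of BAT, rose by less. WT libraries held 268, 282, 299, 256 and 300 CPM, and UCP1 KO libraries 386, 458, 322, 359 and 355 CPM. FGF21 KO libraries held 326, 354, 310, 314 and 293 CPM, and dKO libraries 576, 397, 511, 445 and 480 CPM. UCP1 KO did not overlap WT, and dKO did not overlap FGF21 KO. The log2 fold change was 0.42 ± 0.10 between UCP1 KO and WT (edgeR adjusted p = 0.00263) and 0.59 ± 0.10 between dKO and FGF21 KO (adjusted p = 0.000329). An exact two-sided permutation test gave p = 0.00794 for each step, the smallest it can give with 5 libraries against 5. The dKO mean was above the UCP1 KO mean by 0.36 on the log2 scale, which was not called (adjusted p = 0.188). Members with every library of the first group above the second numbered 2 of 9, Atp2a2 and Atp2a3, in both steps, where 11.8% of all genes did so between UCP1 KO and WT and 8.82% between dKO and FGF21 KO.

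**Figure D2:**
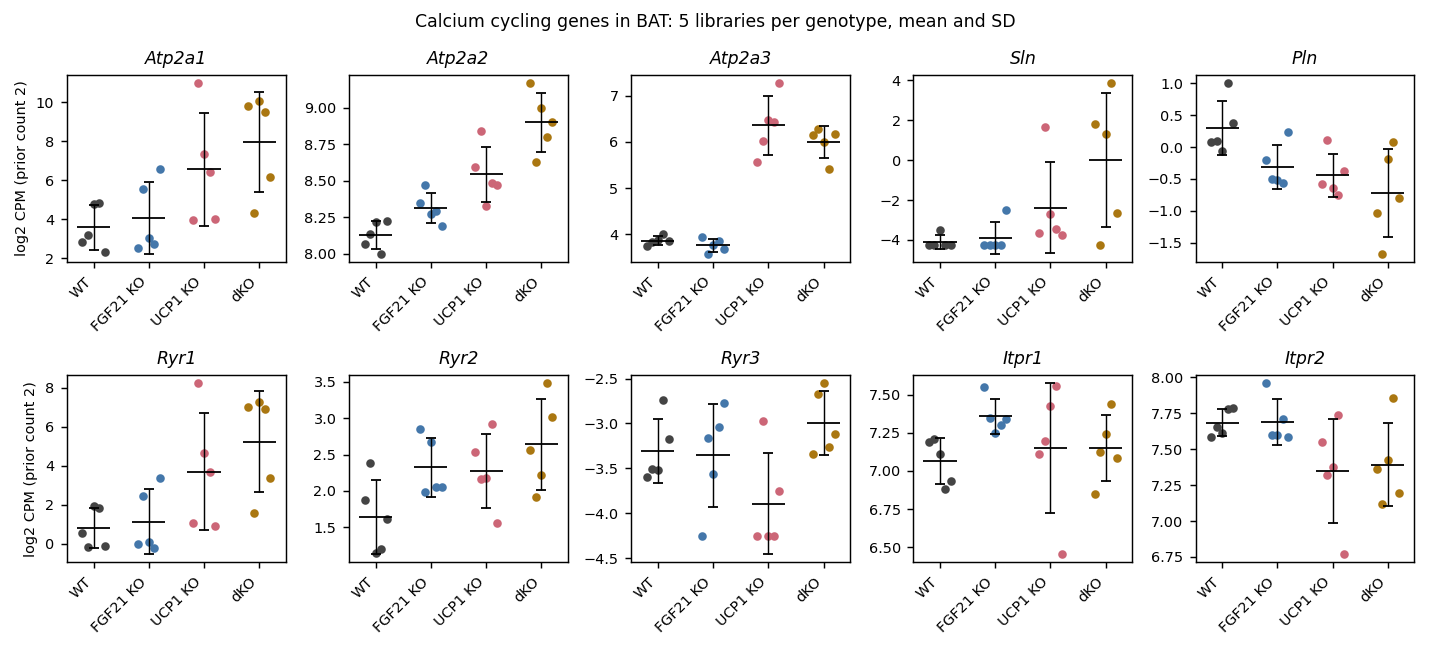
Log2 CPM (prior count 2) of the 10 genes in the BAT libraries of each genotype, with 1 point per library and lines for the mean and SD. All UCP1 KO and dKO libraries lie above all WT and FGF21 KO libraries for Atp2a3, whereas Atp2a1 runs from 15.4 to 2013 CPM within UCP1 KO.

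Atp2a1, the fast muscle pump, was high in some UCP1 KO and dKO libraries and near the WT level in others. It stood at 4.92 to 28.1 CPM in WT and 5.62 to 93.7 CPM in FGF21 KO. UCP1 KO libraries held 15.4, 2013, 164, 85.2 and 16.1 CPM, and dKO libraries 887, 19.7, 1048, 712 and 70.9 CPM. Groups overlapped in both steps. Its log2 fold change was 4.91 ± 1.41 between UCP1 KO and WT (edgeR adjusted p = 0.00989) and 4.09 ± 1.35 between dKO and FGF21 KO (adjusted p = 0.0302, not called). Ryr1 followed the same libraries: WT held 0.843 to 3.71 CPM, UCP1 KO 2.01, 301, 24.9, 12.7 and 1.79 CPM, and dKO 130, 2.96, 156, 122 and 10.2 CPM. Its log2 fold change was 5.05 ± 1.40 (adjusted p = 0.00814) and 4.53 ± 1.35 (adjusted p = 0.0182, not called). Without UCP1 KO replicate 2 both calls were lost, with 2.20 for Atp2a1 (adjusted p = 0.109) and 2.33 for Ryr1 (adjusted p = 0.0922).

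Fast skeletal muscle markers moved with these genes. The summed level of 10 such markers, none of them at 0 in any library, was 28.5 to 122 CPM in WT, 30.9 to 431 in FGF21 KO, 59.4 to 8950 in UCP1 KO and 96.1 to 4770 in dKO. Of the 10, 5 were called higher between UCP1 KO and WT and 0 of 10 between dKO and FGF21 KO. In whole muscle the sum had a median of 138000 CPM. For each 1000 CPM of these markers, BAT held a median of 214 CPM of Atp2a1 and 30.3 CPM of Ryr1, and muscle held 196 and 27.6 CPM. With the muscle score as a covariate, a fit that takes up whatever runs with these markers and so by construction leaves little of either gene, the log2 fold change between UCP1 KO and WT was −0.08 for Atp2a1 (edgeR adjusted p = 0.731) and −0.15 for Ryr1 (adjusted p = 0.431).

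**Figure D3:**
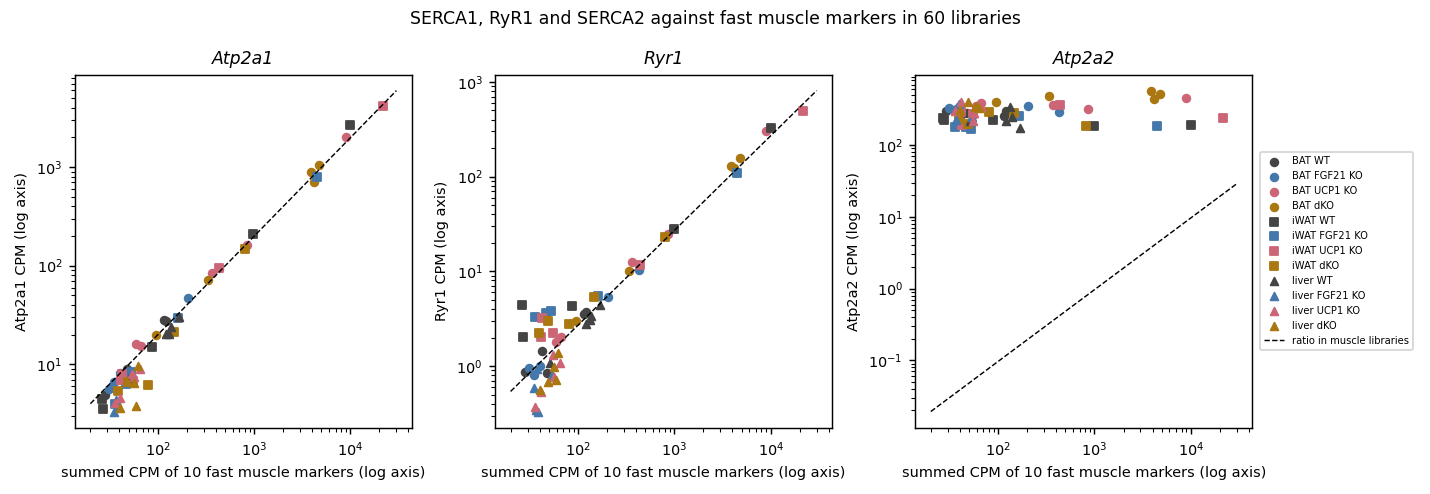
CPM of Atp2a1, Ryr1 and Atp2a2 (vertical, log axis) against the summed CPM of 10 fast skeletal muscle markers (horizontal, log axis) in the BAT, iWAT and liver libraries, with symbols for tissue, colours for genotype and a dashed line for the ratio in muscle. Atp2a1 and Ryr1 lie near the muscle line where the sum is high. Atp2a2 lies above its line in every library, which holds for these fast markers and not for slow fibre markers.

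For Atp2a2 the ratio to muscle markers depended on the marker list. For each 1000 CPM of fast markers BAT libraries held at least 51.1 CPM of Atp2a2, and muscle libraries at most 2.71 CPM. For each 1000 CPM of 5 slow fibre markers the lowest values were 955 CPM in UCP1 KO BAT and 1230 CPM in dKO BAT, both within the 630 to 3260 CPM of muscle. The part of slow fibres in the Atp2a2 level of these libraries was not tested. In the BAT libraries with a low muscle score (UCP1 KO replicates 2 and 3 and dKO replicates 1, 3 and 4 left out), Atp2a3 was higher by 2.74 ± 0.24 in UCP1 KO (adjusted p = 2.9e-06) and by 2.47 ± 0.26 in dKO (adjusted p = 3.04e-05). Atp2a2 was higher by 0.39 ± 0.08 (adjusted p = 0.00241) and 0.46 ± 0.09 (adjusted p = 0.00312). The 5 libraries left out were those with the highest Atp2a1, so a lower fold of that gene follows from the choice, and 2 dKO libraries remained. With the muscle score as a covariate Atp2a3 stayed called in both steps, while Atp2a2 fell short of the threshold, with 0.32 (adjusted p = 0.0247) and 0.45 (adjusted p = 0.0111).

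Macrophage markers also moved with Atp2a3. The sum of 5 of them was 112 to 142 CPM in WT, 109 to 196 in FGF21 KO, 150 to 387 in UCP1 KO and 157 to 247 in dKO, with none at 0. Of the 5, 4 were called higher between UCP1 KO and WT and 1 between dKO and FGF21 KO. Their part in the Atp2a3 result was not tested. The macrophage score was highest in UCP1 KO replicate 5, at 5.97, the library with the highest Atp2a3 (155 CPM). In UCP1 KO replicate 2 the score was 5.95, and Atp2a3 stood at 65.1 CPM. In dKO replicate 3 the score of 4.11 lay within the 3.67 to 4.35 of FGF21 KO, and Atp2a3 stood at 64.1 CPM. Lymph node markers summed to at most 12.5 CPM in any BAT library.

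**Figure D4:**
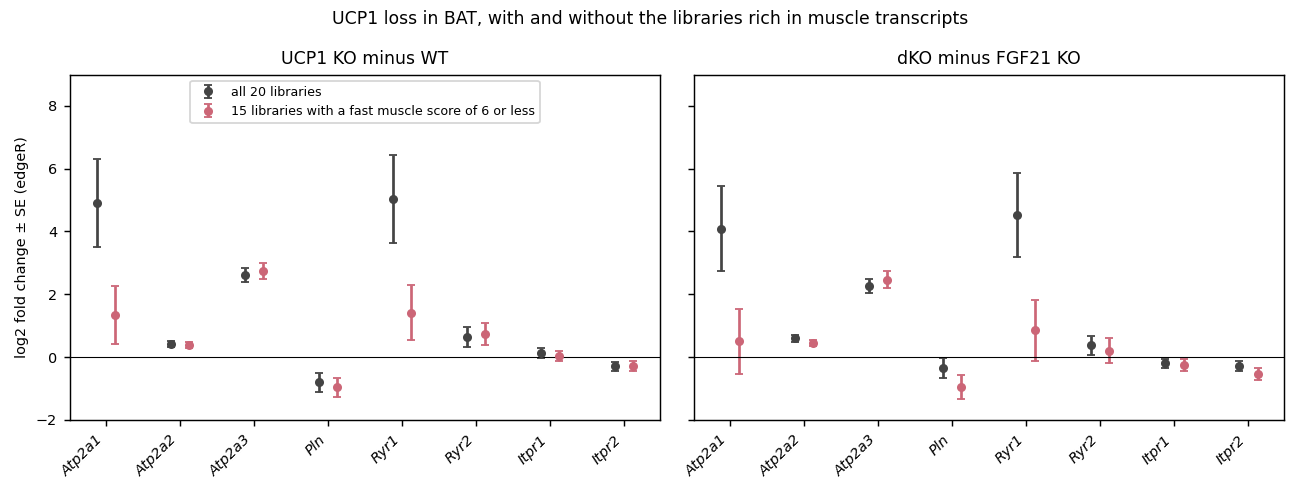
Log2 fold changes with bars of 1 SE in BAT for 8 members, between UCP1 KO and WT and between dKO and FGF21 KO, from the fit of all 20 libraries and from the 15 libraries with a fast muscle score of 6 or less. Atp2a3 stands at 2.62 and 2.74 between UCP1 KO and WT in the 2 fits. The libraries left out of the second fit had the highest Atp2a1, which by itself lowers the fold of Atp2a1 there.

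Sln, the uncoupler of SERCA in muscle, was close to absent in BAT of mice with UCP1. It had 0 CPM in all but 1 of the WT libraries (0.035 CPM) and all but 1 of the FGF21 KO libraries (0.125 CPM). UCP1 KO libraries held 0.0268, 3.12, 0.102, 0.0389 and 0.0218 CPM, and dKO libraries 3.46, 0, 2.48, 14.6 and 0.104 CPM. The highest values fell in libraries with high muscle markers, and 1 dKO library was at 0. The edgeR adjusted p was 0.00694 between dKO and FGF21 KO and 0.0473 between UCP1 KO and WT. No fold is given, since the groups with UCP1 rest on at most 4 counts per library. Without dKO replicate 4 the first was 0.0190, and the call was lost when any of 8 libraries was left out (highest adjusted p = 0.0205). Per 1000 CPM of fast markers Sln had a median of 0.519 CPM in dKO BAT (at most 3.47) and 0.0108 in muscle (at most 0.0309). Per 1000 CPM of 5 slow fibre markers its median was 0 CPM in WT and FGF21 KO BAT, 6.62 in UCP1 KO BAT, 9.36 in dKO BAT and 14.6 in muscle. The highest single values were 117 in dKO BAT and 43.4 in muscle, while those of UCP1 KO (71.4) and FGF21 KO (61.5) BAT rest on 1 and 4 counts of Sln. Those slow markers summed to 1.30 to 5.68 CPM in BAT of WT and FGF21 KO, up to 479 in UCP1 KO and up to 416 in dKO. In dKO replicate 4 Sln was above its highest level in whole muscle, 4.28 CPM. The part of muscle fibres in these counts was not tested.

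Pln, whose product restrains SERCA2, had lower values without being called. WT libraries held 1.00, 1.02, 0.909, 1.95 and 1.25 CPM and UCP1 KO libraries 0.617, 1.02, 0.591, 0.545 and 0.720 CPM. The log2 fold change was −0.81 ± 0.31 between UCP1 KO and WT (edgeR adjusted p = 0.0417) and −0.34 ± 0.31 between dKO and FGF21 KO (adjusted p = 0.443). With the muscle score as a covariate the first was −1.24 (adjusted p = 0.00377). Smooth muscle markers, from cells that also use Pln, summed to 123 to 182 CPM in WT and 67.5 to 134 CPM in UCP1 KO, and their part in this difference was not tested.

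Release channels other than Ryr1 differed less. Ryr2 stood at 2.17 to 5.16 CPM in WT, 3.91 to 7.16 in FGF21 KO, 2.90 to 7.51 in UCP1 KO and 3.71 to 11.1 in dKO. Its log2 fold change was 0.63 ± 0.31 between UCP1 KO and WT (edgeR adjusted p = 0.114), 0.38 ± 0.31 between dKO and FGF21 KO (adjusted p = 0.381) and 1.04 ± 0.31 between dKO and WT (adjusted p = 0.0147). Ryr3 was at or under 0.118 CPM in every BAT library. Itpr1 stood at 118 to 148 CPM in WT and 87.7 to 188 CPM in UCP1 KO, a log2 difference of 0.12 with an interval of −0.17 to 0.42. Itpr2 stood at 192 to 220 CPM in WT and 109 to 213 CPM in UCP1 KO, a difference of −0.30 with an interval of −0.60 to 0.00. UCP1 KO replicate 5 was the lowest library for both receptors and the highest for Atp2a3.

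Scaling bears on the small changes. TMM factors lay below 1 in all WT and FGF21 KO libraries of BAT and at or above 1 in UCP1 KO and dKO. Without them the median log2 fold change of all genes became 0.31 between UCP1 KO and WT and 0.23 between dKO and FGF21 KO. The higher share of called genes went from 54.7% to 92.0% in the first step and from 49.8% to 90.9% in the second. Relative to those medians Atp2a2 stood at 0.41 in the first step with either scaling, and Itpr1 moved from 0.11 to 0.10. Taken without the shift, Itpr1 would be higher by 0.41 (edgeR adjusted p = 0.0178) between UCP1 KO and WT, and its sign between dKO and FGF21 KO would turn from −0.20 to 0.02. In the same way, between UCP1 KO and WT, Atp2a2 would stand at 0.72 in place of 0.42, Ryr2 at 0.93 (edgeR adjusted p = 0.0178) in place of 0.63, Pln at −0.51 (edgeR adjusted p = 0.179) in place of −0.81 and Itpr2 at −0.016 (edgeR adjusted p = 0.934) in place of −0.30.

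No member was called in BAT for the presence of FGF21. Between UCP1 KO and dKO 0 of 9 members were called in edgeR or DESeq2, with 2 at an unadjusted p under 0.05, where 0.0636% of all genes were called and 12.9% were under 0.05. Between FGF21 KO and WT 0 of 9 were called with either tool, with 2 under 0.05 unadjusted, against 0.0% of all genes and 8.55% under 0.05. Itpr1 was higher in all 5 FGF21 KO libraries (152 to 187 CPM) than in all WT libraries, a log2 difference of 0.29 ± 0.15 (adjusted p = 0.621). The difference between the steps with and without FGF21 was tested as an interaction, where 0 of 9 members were called by either tool and 0 had an unadjusted p under 0.05, against 0.0% of all genes called and 5.37% under 0.05. For Atp2a3 the difference of the steps was 0.35 ± 0.31 and for Atp2a2 −0.17 ± 0.14. UCP1 KO against dKO shares its libraries with the steps above, so these counts are not independent of them.

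Other calcium genes were taken from 6 lists of 56 names, of which 52 were found and 48 tested in BAT. Between UCP1 KO and WT 12 were called higher and 4 lower, against the 25.2% of all genes, with a median log2 fold change of 0.25 where all genes had 0.01. Between dKO and FGF21 KO 4 were called higher and 3 lower, against 13.5%. No gene of the lists was called by edgeR between UCP1 KO and dKO (6 under 0.05 unadjusted) or in the interaction (2 under 0.05).

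Called genes of mitochondrial calcium uptake numbered 3 of 9, all higher, and those of store-operated entry 4 of 7, with 3 higher and 1 lower, where 25.2% of all genes were called. Mcu, the pore of the mitochondrial calcium uniporter, rose by 0.45 ± 0.09 on the log2 scale to 24.6 ± 2.48 CPM in UCP1 KO (edgeR adjusted p = 0.000641), with every library above every WT library. Its gatekeeper Micu2 rose from 34.8 ± 3.29 to 47.8 ± 5.15 CPM (adjusted p = 0.000161). Ccdc109b, which encodes the inhibitory uniporter subunit, rose from 0.641 ± 0.144 to 1.72 ± 0.706 CPM (adjusted p = 0.000406). Stim2, a sensor of store calcium, rose from 13.4 ± 0.872 to 16.8 ± 0.982 CPM, and the entry channel gene Orai3 fell from 36.2 ± 5.92 to 26.1 ± 2.84 CPM. Trpc1, another entry channel, rose from 3.95 ± 0.338 to 5.97 ± 0.981 CPM, and Orai2 from 1.12 ± 0.479 to 2.52 ± 0.996 CPM. The macrophage markers given beside Atp2a3 were higher in the same comparison, and their part in these differences was not tested.

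Of the release complex, Mrvi1, which encodes a partner of IP3 receptors in smooth muscle, fell from 10.7 ± 1.77 to 6.18 ± 0.781 CPM (edgeR adjusted p = 0.00022). Smooth muscle markers summed to 123 to 182 CPM in WT and 67.5 to 134 CPM in UCP1 KO, and their part in the Mrvi1 level was not tested. Itpr3, the remaining IP3 receptor, fell from 10.6 ± 0.827 to 8.27 ± 0.518 CPM (adjusted p = 0.00517). Cacna2d1, a subunit of voltage-gated calcium channels, rose from 6.08 ± 0.383 to 18.8 ± 11.6 CPM and did not overlap WT. The muscle genes Casq1, Hrc, Trdn, Cacna1s and Camk2a were called higher in UCP1 KO, with muscle medians of 3100, 888, 1350, 982 and 567 CPM, and all overlapped WT. The part of muscle RNA in these 5 and in the rise of Cacna2d1 was not tested. The Golgi pump gene Atp2c1 fell slightly, from 46.1 ± 1.52 to 39.8 ± 1.72 CPM.

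The step without FGF21 repeated 5 of these calls in direction. The share of all genes called in both steps is not given, so this count does not set these genes apart. Between FGF21 KO and dKO Cacna2d1 (7.25 ± 1.44 to 21.7 ± 9.84 CPM), Stim2 (log2 fold change 0.47 ± 0.09) and Mcu (19.4 ± 1.25 to 24.8 ± 3.55 CPM) rose. Mrvi1 (10.0 ± 1.40 to 6.39 ± 1.13 CPM) and Orai3 (33.7 ± 4.25 to 22.7 ± 2.67 CPM) fell. Smooth muscle markers summed to 91.6 to 128 CPM in FGF21 KO and 69.0 to 111 CPM in dKO, and their part was again not tested. Letm1, a mitochondrial inner membrane exchanger, rose from 398 ± 40.4 to 558 ± 69.2 CPM. 1810037I17Rik, which encodes a small SERCA-binding peptide of non-muscle cells, fell from 29.0 ± 0.620 to 23.2 ± 1.65 CPM (edgeR adjusted p = 0.00344).

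Genes whose log2 CPM ran most closely with a member over the 20 BAT libraries are given as a description. Atp2a1 ran with Acta1 and Ckm (both r = 0.998), skeletal muscle actin and creatine kinase, and Ryr1 with Ckm and Acta1 (both r = 0.997). Sln ran with Atp1b4 and Chrna1 (both r = 0.975). Atp2a3 ran with Aldh18a1, an enzyme of proline synthesis, and Reep6, an endoplasmic reticulum protein (both r = 0.989). Atp2a2 ran with Ibtk (r = 0.921) and with Atp1b1 (r = 0.908), a sodium pump subunit. For Pln these were Trip10 and Pdgfrl (r = 0.890 and 0.889), for Ryr2 Arfgef2 and Btaf1 (0.809 and 0.783), for Itpr1 AK149313 and DQ560772 (0.842 and 0.836) and for Itpr2 Cnot1 and Ncapd3 (0.903 and 0.898). The libraries share tissue, genotype groups and scaling.

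In iWAT no member was called in any comparison by edgeR, although Ryr2 and both IP3 receptors stood higher in UCP1 KO than in WT in most libraries. Counts were 0 of 9 over 4 genotypes (1.74% of all genes called), 0 between UCP1 KO and WT (0.61%), 0 between dKO and FGF21 KO (0.0115%) and 0 between UCP1 KO and dKO (0.466%). They were 0 between FGF21 KO and WT (0.00575%) and 0 for the interaction (0.0%). Members at an unadjusted p under 0.05 numbered, in that order, 5 (22.5% of all genes), 4 (14.7%), 1 (8.62%), 0 (14.2%), 3 (17.4%) and 3 (9.98%). DESeq2 called 1 over 4 genotypes, 2 between UCP1 KO and WT, and 0 in the others named here. The shares above are those of edgeR. In the comparisons where DESeq2 called members it also called more of all genes, as given at the end. Of the other calcium genes 0 of 50 were called between UCP1 KO and WT, between UCP1 KO and dKO, or between dKO and FGF21 KO. Those under 0.05 unadjusted numbered 6, 14 and 2, beside the 14.7%, 14.2% and 8.62% of all genes given above.

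iWAT libraries differed in what else they held. The score of 8 lymph node markers was above 4 in 9 of 20 libraries, of which 4 were FGF21 KO, 2 were WT, 2 were dKO and 1 was UCP1 KO. Their summed level ran from 9.72 to 1100 CPM in WT, 9.79 to 1610 in FGF21 KO, 8.36 to 1540 in UCP1 KO and 5.51 to 1540 in dKO, with none of the 8 at 0 in any library. Fast muscle markers summed to at most 10000 CPM in WT, 4480 in FGF21 KO, 21800 in UCP1 KO and 810 in dKO. The main results are also given within libraries low in both (fast muscle score at most 6, lymph node score at most 4). These were replicates 1 to 3 of WT, 3 to 5 of UCP1 KO and 2, 4 and 5 of dKO. Of FGF21 KO only replicate 2 was among them.

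Ryr2, the heart-type release channel, held 0.637, 0.693, 0.728, 1.85 and 1.5 CPM in WT iWAT and 1.54, 5.11, 5.39, 5.22 and 6.05 CPM in UCP1 KO. FGF21 KO libraries held 2.76, 0.818, 3.36, 1.82 and 1.54 CPM, and dKO libraries 3.35, 7.62, 4.20, 1.76 and 10.6 CPM. In UCP1 KO, 4 of 5 libraries stood above every WT library, and the exception was replicate 1, which also held the most muscle RNA. The log2 fold change between UCP1 KO and WT was 2.10 ± 0.51 (edgeR adjusted p = 0.0332, DESeq2 adjusted p = 0.00103). In the libraries low in muscle and lymph node markers it was 3.00 ± 0.55. That set left out UCP1 KO replicate 1, the lowest of its group, and WT replicates 4 and 5, the highest of theirs. A higher fold therefore follows from the choice. Between dKO and WT the log2 fold change over all libraries was 2.34 ± 0.51 (edgeR adjusted p = 0.286). UCP1 KO and dKO differed by −0.24 with an interval of −1.20 to 0.73.

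Itpr1 held 60.2 to 72.9 CPM in WT, 83.5 to 107 in FGF21 KO and 77.8 to 115 in dKO, and 64.7, 117, 108, 126 and 108 CPM in UCP1 KO. All FGF21 KO and all dKO libraries stood above all WT libraries, as did 4 of 5 UCP1 KO libraries. The share of all genes separated in this way is not given for iWAT. Libraries with a high lymph node score numbered 4 in FGF21 KO and 2 in WT, and their part in these levels was not tested. The log2 fold change against WT was 0.59 ± 0.15 in UCP1 KO (edgeR adjusted p = 0.0439), 0.42 ± 0.15 in FGF21 KO (adjusted p = 0.249) and 0.40 ± 0.15 in dKO (adjusted p = 0.735). In libraries low in both marker lists, which leave out UCP1 KO replicate 1, the lowest of its group, the first was 0.72. With 1 library left out it was called only without UCP1 KO replicate 1 (adjusted p = 0.00313), and the other fits reached adjusted p = 0.13.

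Itpr2 held 33.2 to 51.4 CPM in WT, 45 to 81.9 in FGF21 KO and 42.4 to 71.2 in dKO, and 38.4, 82.3, 75.7, 83.9 and 91.7 CPM in UCP1 KO. Its log2 fold change between UCP1 KO and WT was 0.77 ± 0.22 (edgeR adjusted p = 0.0674). In libraries low in both marker lists it was 1.10 ± 0.13. UCP1 KO replicate 1, the lowest of its group, was not among those libraries, so a higher fold follows in part from the choice. The difference between the steps with and without FGF21 was 1.02 ± 0.31 for Itpr2 (adjusted p = 0.280) and 0.61 ± 0.21 for Itpr1 (adjusted p = 0.351).

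**Figure D5:**
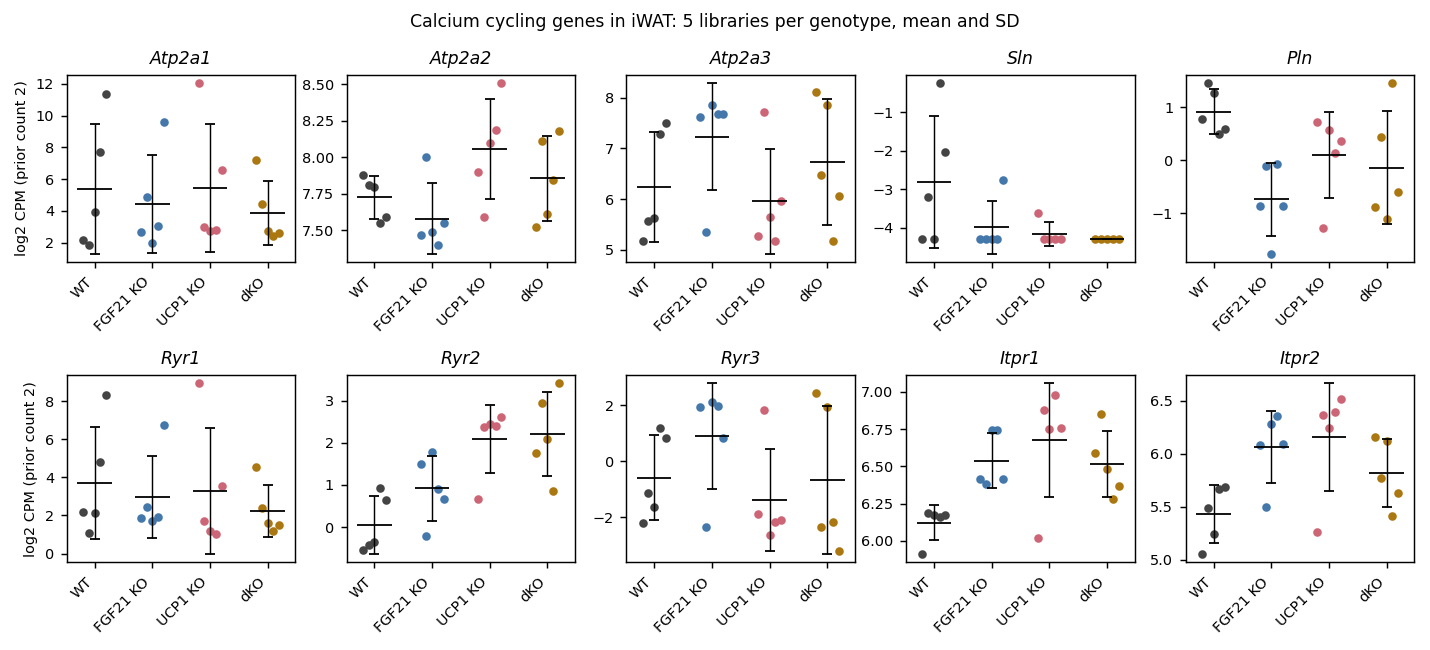
Log2 CPM (prior count 2) of the 10 genes in the iWAT libraries of each genotype, with 1 point per library and lines for the mean and SD. Ryr2, Itpr1 and Itpr2 are higher in 4 of 5 UCP1 KO libraries than in every WT library, and Atp2a3 and Ryr3 fall into a high and a low set of libraries in each genotype.

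Brown and beige fat markers moved in iWAT too. The sum of 6 of them was 28.6 to 75.5 CPM in WT, 12.9 to 68.1 in FGF21 KO, 306 to 1990 in UCP1 KO and 24.9 to 121 in dKO, with none at 0, and 5 of 6 were called higher between UCP1 KO and WT. Ryr2 stood at 1.76 to 10.6 CPM in dKO, where these markers were low. The part of brown-like cells in the levels of Ryr2, Itpr1 and Itpr2 was not tested.

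Atp2a3 in iWAT ranged from 35.9 to 182 CPM in WT and 36.3 to 210 CPM in UCP1 KO. The 9 libraries with a lymph node score above 4 were its 9 highest, and in low libraries it differed by 0.15 ± 0.30 (edgeR adjusted p = 0.749) between UCP1 KO and WT. Ryr3 split the same way, between 0.0559 and 5.33 CPM over all iWAT libraries. The genes closest to Atp2a3 over the 20 iWAT libraries were Tmc6 (r = 0.990) and Ceacam16 (r = 0.982), and those closest to Ryr3 were Syndig1l (0.983) and AF041937 (0.982). For Ryr2 they were Usp38 (0.861) and Psme3 (0.822), for Itpr1 Vps13d (0.902) and Zbtb38 (0.877) and for Itpr2 Adrbk2 (0.911) and Lpin2 (0.889).

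Atp2a1 reached 2642 CPM in WT replicate 5 and 4209 CPM in UCP1 KO replicate 1, the libraries with the most muscle markers, and was as low as 3.52 CPM elsewhere. It ran with Ckm and Tnnt3 (both r = 0.997), and Ryr1 with Pygm (0.990) and Nrap (0.989). Atp2a2 stood at 187 to 236 CPM in WT and 193 to 364 CPM in UCP1 KO, 0.36 ± 0.17 apart on the log2 scale (edgeR adjusted p = 0.329), and ran with Uba3 (0.979) and Mmgt1 (0.976). Pln held 1.36 to 2.68 CPM in WT and 0.245 to 0.898 CPM in FGF21 KO, with no overlap, a log2 difference of −1.66 ± 0.51 (adjusted p = 0.236). Smooth muscle markers summed to 227 to 416 CPM in those WT and 140 to 320 CPM in those FGF21 KO libraries. Pln ran with the smooth muscle gene Lmod1 (r = 0.958) and with Pcp4l1 (0.937), and the part of smooth muscle was not tested. Sln was at or under 0.798 CPM in every iWAT library.

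In liver the called members were again those of skeletal muscle. Between FGF21 KO and WT 2 of 6 members tested were called, both lower, where 0.229% of all genes were called, and the same count held over 4 genotypes (0.34%). Atp2a1 held 20.3, 20.1, 24.1, 29.9 and 7.28 CPM in WT and 8.12, 4.33, 3.79, 3.31 and 4.16 CPM in FGF21 KO. Its log2 fold change was −2.11 ± 0.35 (edgeR adjusted p = 0.00528). Ryr1 held 3.03, 2.77, 3.36, 4.37 and 1.08 CPM in WT and 0.807, 0.341, 0.331, 0.593 and 0.939 CPM in FGF21 KO (−2.28 ± 0.38, adjusted p = 0.00528). The other genotypes stood near FGF21 KO, with Atp2a1 at 4.07 to 9.01 CPM in UCP1 KO and 3.62 to 9.70 CPM in dKO.

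Fast muscle markers in liver summed to 50.7 to 168 CPM in WT and 35.3 to 53.6 CPM in FGF21 KO, with none at 0, and 6 of 10 were called lower. With their score as a covariate, with the same limit as in BAT, the log2 fold change was 0.05 for Atp2a1 and −0.26 for Ryr1 (both edgeR adjusted p = 0.999). Between UCP1 KO and WT 0 of 6 members were called (0.0694% of all genes; 2 members and 10.2% of all genes under 0.05 unadjusted, 2 members by DESeq2), and between UCP1 KO and dKO 0 of 6 (0.00694%; 0 members and 8.25% of all genes under 0.05, 0 members by DESeq2). These shares are those of edgeR, and DESeq2 called more of all genes between UCP1 KO and WT, as given at the end. Atp2a2, the main pump of liver, stood at 175 to 343 CPM in WT and 306 to 396 CPM in dKO, 0.53 ± 0.17 apart on the log2 scale (adjusted p = 0.205). Itpr1 and Itpr2 were not called, and the interval of their difference between UCP1 KO and WT was −0.62 to 0.15 and −0.26 to 0.25.

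In muscle, the tissue with the highest Atp2a1 and Ryr1, no member was called by edgeR in the fit of all 20 libraries. Counts were 0 of 10 over 4 genotypes (0.086% of all genes called), 0 between UCP1 KO and WT (0.0265%), 0 between UCP1 KO and dKO (0.0%) and 0 between FGF21 KO and WT (0.00662%). Members at an unadjusted p under 0.05 numbered, in that order, 1 (16.3% of all genes), 1 (9.81%), 1 (11.7%) and 3 (12.9%). DESeq2 called 1, 0, 1 and 1. It also called more of all genes in each of these comparisons, as given at the end, and the shares here are those of edgeR. Atp2a1 stood at 23700 to 28510 CPM in WT and 25000 to 28230 CPM in UCP1 KO, a log2 difference of −0.01 with an interval of −0.15 to 0.14. Ryr1 stood at 3541 to 3844 CPM in WT and 3235 to 4253 CPM in UCP1 KO (0.09, interval −0.09 to 0.26).

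Itpr1 came closest to the threshold in muscle. It held 50.8 to 59.2 CPM in WT, 55.0 to 66.7 in UCP1 KO, 57.1 to 84.5 in FGF21 KO and 70.8 to 88.0 in dKO. All dKO libraries stood above all WT and all UCP1 KO libraries. Its log2 fold change was 0.49 ± 0.08 between dKO and WT (edgeR adjusted p = 0.0125), 0.43 ± 0.08 between FGF21 KO and WT (adjusted p = 0.028) and −0.37 ± 0.08 between UCP1 KO and dKO (adjusted p = 0.151). The last 2 had adjusted p = 0.000449 and 0.00992 in DESeq2. Without FGF21 KO replicate 5 the difference between FGF21 KO and WT was 0.50 and was called (edgeR adjusted p = 0.00184).

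Atp2a2, Sln and Pln varied within every muscle group. Sln, for example, ran from 0.388 to 2.25 CPM in WT and from 0.505 to 3.56 CPM in UCP1 KO, and Atp2a2 from 81.1 to 270 CPM in WT. Slow fibre markers, whose cells use Atp2a2 and Pln, summed to 24.9 to 399 CPM in WT, 69.3 to 519 in FGF21 KO, 34.6 to 177 in UCP1 KO and 105 to 259 in dKO. With their score as a covariate the SE of Atp2a2 between FGF21 KO and WT went from 0.34 to 0.11, and its log2 fold change from 0.63 to −0.04. That fit takes up whatever runs with slow fibre markers, so a smaller fold of Atp2a2 follows by construction. Itpr2 differed by −0.25 ± 0.09 between UCP1 KO and WT without the covariate (adjusted p = 0.398). Itpr1 stood at 0.37 ± 0.09 between FGF21 KO and WT in the fit with the slow fibre score (edgeR adjusted p = 0.0621).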

How the data were processed

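Counts were deposited by the authors as 1 table per library of whole-number read counts per gene, not normalized. According to the submitters' processing notes and the methods, poly(A) RNA was made into strand-specific libraries, sequenced as paired ends, aligned with STAR to the mouse genome build mm10 and counted with HTSeq. Replicate numbers only name the libraries of a group, in the order of their records. A row that names no gene (1.32e-05 percent of counts) was left out.

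Each tissue was fitted on all 20 libraries with edgeR 4.0.16 in R 4.3.3 (TMM factors, quasi-likelihood F test, genes whose highest count exceeded 15 and whose summed count exceeded 75, with at most 10 libraries at 0). P-values were adjusted after Benjamini-Hochberg over all genes tested in the tissue, and adjusted p under 0.01 was called. SEs are the log2 fold change divided by the square root of F. WT libraries of the 4 tissues were fitted together in the same way. All unlabelled adjusted p-values are from edgeR. Exact two-sided permutation tests used SciPy 1.17.1. Marker scores are means of log2(CPM + 0.1). Levels per kilobase use the longest protein-coding transcript, and gene positions are on GRCm38. The scripts were tested on simulated data. DESeq2 1.42.0, other factors, filters, thresholds, sample sets, covariates and leaving out each library were alternatives. The precision of low counts is limited by depth, and intervals of 2 SE cover the spread between libraries.

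The members, marker lists and pathway lists were chosen with earlier results of these data known. Named were all members, the pathway genes called in BAT between UCP1 KO and WT or between dKO and FGF21 KO, and the 2 genes most correlated with each member.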

Additional observations from a re-analysis of the deposited data

Results flagged for a closer look

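In 16 of 136 groups of 5 libraries 1 library lay apart from the rest by Dixon's test on log2 CPM (critical value 0.71), where chance gives about 1 in 20. In BAT these were Sln in WT replicate 3 (0.035 CPM), FGF21 KO replicate 5 (0.125 CPM) and UCP1 KO replicate 2 (3.12 CPM), the last being the BAT library with the most skeletal muscle markers. In WT and FGF21 KO the other 4 libraries had no Sln count, so any library with a count is set apart there, and these 2 groups say nothing against the rate chance gives.

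In iWAT, UCP1 KO replicate 1 was the lowest of its group for Ryr2 (1.54 CPM), Itpr1 (64.7 CPM) and Itpr2 (38.4 CPM), and it had the highest fast muscle score of all iWAT libraries. FGF21 KO replicate 2, the FGF21 KO library with a low lymph node score, was highest for Atp2a2 (256 CPM) and lowest for Atp2a3 (40.7 CPM) and Ryr3 (0.146 CPM). UCP1 KO replicate 2, the UCP1 KO library with a high lymph node score, was highest for Ryr3 (3.54 CPM). FGF21 KO replicate 5 was highest for Ryr1 (109 CPM), and WT replicate 1 lowest for Itpr1 (60.2 CPM).

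In liver, WT replicate 5 was lowest for Atp2a1 (7.28 CPM) and dKO replicate 5 highest for Atp2a3 (2.24 CPM). In muscle, WT replicate 1 was lowest for Atp2a1 (23700 CPM) and for Ryr3 (0.89 CPM).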

How the results depend on the processing

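Of the alternatives that left no library out singly, 1073 values kept their direction and side of the threshold, 76 moved, 23 passed the threshold, 12 no longer did and 3 that passed in either fit changed sign. Changes of sign in values that passed in neither are counted among those that moved. The 3 were, with the fast muscle score as a covariate, Atp2a1 (−0.076) and Ryr1 (−0.146) in BAT between UCP1 KO and WT and Atp2a1 (0.046) in liver between FGF21 KO and WT. In BAT the members called over 4 genotypes went from 5 to 3 with that covariate and in libraries low in muscle markers. Between UCP1 KO and WT they went from 4 to 2 with the covariate, with only the groups compared and in the libraries low in muscle markers. Between dKO and FGF21 KO they went from 3 to 5 at adjusted p under 0.05 and in DESeq2, and to 1 with the covariate. Member counts here and for the other tissues stand without the share of all genes in the same setting. A looser setting can call more genes of any kind, so these counts do not single out the members. In iWAT the count over 4 genotypes went from 0 to 1 at adjusted p under 0.05 and in DESeq2. Between UCP1 KO and WT it went from 0 to 2 in both settings and with a covariate for the lymph node score. No count is given for the libraries low in muscle and lymph node markers, where replicate 2 was the only FGF21 KO library. In liver the count went from 2 to 0 over 4 genotypes with the muscle covariate, and from 0 to 2 between UCP1 KO and WT at adjusted p under 0.05 and in DESeq2. In muscle it went from 0 to 1 over 4 genotypes at adjusted p under 0.05 and in DESeq2, and between UCP1 KO and dKO in DESeq2. Itpr1 in muscle between FGF21 KO and WT, not called, passed at adjusted p under 0.05 (0.028), in DESeq2 (0.000449) and in 1 of 20 fits that left out a library. The cause was not tested.

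With each library left out in turn, counts ranged from 3 to 5 in BAT over 4 genotypes, 2 to 4 between UCP1 KO and WT and 2 to 5 between dKO and FGF21 KO. They ranged from 0 to 1 in iWAT between UCP1 KO and WT, 0 to 2 in liver over 4 genotypes and between UCP1 KO and WT, 0 to 1 in muscle over 4 genotypes and 9 to 10 over the WT tissues. The calls of Atp2a2 and Atp2a3 in BAT were lost in 0 of 20 such fits, that of Atp2a1 between UCP1 KO and WT in 14 and that of Ryr1 in 8. In liver the calls of Atp2a1 and Ryr1 between FGF21 KO and WT were each lost in 8.

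Over all genes DESeq2 called more than edgeR. In iWAT it called 597 against 106 between UCP1 KO and WT, 535 against 81 between UCP1 KO and dKO, 42 against 1 between FGF21 KO and WT and 1263 against 302 over 4 genotypes. In liver it called 112 against 10 between UCP1 KO and WT, 55 against 33 between FGF21 KO and WT and 193 against 49 over 4 genotypes, and in muscle 192 against 1 between FGF21 KO and WT, 26 against 4 between UCP1 KO and WT, 20 against 0 between UCP1 KO and dKO and 363 against 13 over 4 genotypes. In BAT it called 56 against 10 between UCP1 KO and dKO and 30 against 0 between FGF21 KO and WT. The fits without the libraries rich in muscle or lymph node markers, with the slow fibre score and without normalization factors were chosen after seeing the data. No paired analysis was possible because the labels give no replicate numbers, and those used here only name libraries. Sln, Ryr2 and Ryr3 rest on few counts in most tissues, which limits what could be detected.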
